A study of Mus musculus with 132 samples.

Results

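The genes described here are 10 genes of the epithelial-to-mesenchymal transition (EMT), taken by name from a count table of 25146 genes. They comprise 6 transcription factors (Snai1, Snai2, Zeb1, Zeb2, Twist1 and Twist2), both cadherins of the cadherin switch (Cdh1, which encodes E-cadherin, and Cdh2, which encodes N-cadherin), the epithelial adhesion gene Epcam and Vim, which encodes the intermediate filament vimentin. They were followed in 23 poly(A)-minus RNA-seq libraries of mouse embryonic stem cells (mESCs) that were differentiated towards blood, an assay that also captures nascent transcripts. The RNA-seq cells belong to E14-TG2a, a male mESC line of strain 129/Ola. Undifferentiated wild-type mESCs (day 0) gave 2 libraries, which are labelled technical replicates of 1 culture. Flk1+ mesoderm (day 4) gave 3 libraries of wild type, 3 of P1-CTCF-KO and 3 of P2-CTCF-KO. CD41+ hematopoietic progenitor cells (HPCs, day 7) gave 4 libraries from wild type, 3 from P1-CTCF-KO and 5 from P2-CTCF-KO. In P1-CTCF-KO and P2-CTCF-KO, the CTCF binding site beside the P1 or the P2 promoter of Runx1 had been deleted with CRISPR-Cas9, and each library comes from a clone grown from a single cell. Wild-type clones are C8.1, C6.1 and B9.3, the P1-CTCF-KO clones E7.1, E7.2 and E9.1, and the P2-CTCF-KO clones D2.1, D10.1 and E9.1, the last a different clone from the P1-CTCF-KO clone of that name. Clones B9.3, D2.1 and D10.1 were sequenced as a pair of HPC libraries each, so these libraries share their clone. Each deletion removed a binding site and not a gene, so no gene count checks the genotype labels.

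EMT is the process by which cells of an epithelial sheet loosen their junctions and become motile, and mesoderm forms at gastrulation through it. Factors of the SNAIL, ZEB and TWIST families bind E-box motifs, and SNAIL and ZEB factors repress Cdh1 and other epithelial genes directly. In the cadherin switch, E-cadherin is lost and N-cadherin gained. Blood forms from mesoderm by way of hemogenic endothelium, whose cells round up and detach in the endothelial-to-hematopoietic transition, and Zeb2 is known to be needed in hematopoietic stem and progenitor cells.

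The E-box bound by SNAIL and ZEB factors reads CAGGTG, or CACCTG on the other strand. It was looked for on both strands in the 250 bases before the start of each gene, as given by RefSeq on GRCm38.p6, where 6 of the 10 genes had an entry. Of all 32851 such promoters, 17.2% held at least 1 of these E-boxes and 2.06% held 2 or more. Snai1 held 1, Epcam held 2, and none was found before the annotated starts of Vim, Twist1, Twist2 and Zeb2. The Snai1 and Epcam promoters are shown, with E-boxes in capitals, because they hold the letters that a repressor of this group binds. The last sequence is the open site called at the Snai1 promoter in HPCs (mm9), a stage at which Snai1 gave almost no read, and it holds the same E-box. A match of letters is not evidence of binding.
Snai1 promoter, chr2:167537945-167538194, plus strand: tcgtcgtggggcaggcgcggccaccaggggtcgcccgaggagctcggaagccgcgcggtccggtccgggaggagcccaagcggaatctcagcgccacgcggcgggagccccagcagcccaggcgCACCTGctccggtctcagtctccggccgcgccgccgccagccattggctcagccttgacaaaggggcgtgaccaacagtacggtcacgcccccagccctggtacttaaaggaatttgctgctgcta
Epcam promoter, chr17:87635729-87635978, plus strand: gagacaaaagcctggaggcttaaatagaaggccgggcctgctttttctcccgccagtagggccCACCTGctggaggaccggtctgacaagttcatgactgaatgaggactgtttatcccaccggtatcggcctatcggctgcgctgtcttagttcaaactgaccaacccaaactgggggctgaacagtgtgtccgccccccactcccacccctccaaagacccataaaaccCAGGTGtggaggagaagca
Snai1 open site in HPCs, mm9 chr2:167363506-167363675, plus strand: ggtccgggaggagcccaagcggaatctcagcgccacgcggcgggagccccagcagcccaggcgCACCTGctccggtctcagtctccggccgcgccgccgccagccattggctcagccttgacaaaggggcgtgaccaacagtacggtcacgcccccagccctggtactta

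Counting covered exons together with introns. In mm9 the counted spans are Snai1 (chr2:167363694-167368311), Snai2 (chr16:14705944-14709488), Zeb2 (chr2:44839031-44972962), Twist1 (chr12:34642535-34644696), Twist2 (chr1:93698037-93744611), Cdh1 (chr8:109127249-109194147), Epcam (chr17:88035318-88050467) and Vim (chr2:13495937-13504453), with Zeb2 on the minus strand and the others on the plus strand, and Zeb1 and Cdh2 lie on chromosome 18. Levels are given as CPM, counts scaled to a common library size by edgeR's TMM method over all 23 libraries, and they set samples beside each other for 1 gene. Ribosomal RNA entries, together with entries at more than 1 locus or spanning over 2.5 Mb, took 68.1% to 76.3% of the counts in undifferentiated mESCs and 87.8% to 91.0% in mesoderm and HPCs. All other genes shared 4858660 to 7748567 counts in an undifferentiated library, 1897917 to 2288976 in a mesoderm library and 878966 to 1584401 in an HPC library. A difference from undifferentiated mESCs cannot be told apart from one between library preparations, since ribosomal RNA depletion is named for those libraries alone. The folds from mESCs also rest on the scaling, whose TMM factors were 7.546 and 4.967 in undifferentiated libraries and 0.3807 to 0.9439 in wild-type mesoderm. Differences were tested with edgeR's quasi-likelihood test in 1 fit of the 23 libraries, with Benjamini-Hochberg adjustment over 12543 genes. A call required both an adjusted p under 0.05 and a log2 fold change beyond 1 in either direction, and in parentheses the log2 fold change comes first. Of the 10 genes, 9 passed the filter on low counts and Snai2 did not. Epcam passed through undifferentiated mESCs, since it exceeded 10 counts elsewhere only in the P2-CTCF-KO mesoderm library D10.1 (16 counts). Snai1, Twist1 and Twist2 passed mainly through mesoderm, with at most 27, 6 and 9 counts in undifferentiated mESCs and 2, 2 and 12 in HPCs. For these genes the filter therefore leaned towards a rise into mesoderm and a fall after it. For a gene with 3 or fewer counts in each library of 1 group, the fold is a bound computed against 3 counts per library. In bulk samples, fewer expressing cells and less RNA per cell cannot be told apart.

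Markers of the labelled stages were present, and some libraries stood apart. The lists include Kdr, which encodes Flk1, and Itga2b, which encodes CD41. Cells had been sorted on both proteins, so the mesoderm and hematopoietic sums are in part set by the sort. The summed level of 7 pluripotency markers was 45.9 to 49.5 CPM in undifferentiated mESCs and 0 to 8.82 CPM later, that of 7 mesoderm markers was 33.2 to 110 CPM in mesoderm and 2.76 to 20.2 CPM in HPCs, and that of 8 hematopoietic markers was 75.5 to 260 CPM in HPCs and 3.1 to 22.2 CPM in mesoderm. Runx1, Itga2b, Tal1, Gata1 and Gfi1b were higher in every HPC library than in any mesoderm library. Myb overlapped between these stages, and Ptprc and Spi1 had at most 8 and 14 counts in an HPC library. In mesoderm, the sum of 5 endothelial markers was 71.6 CPM in wild-type B9.3 and 42 CPM in P1-CTCF-KO E9.1, 1.46 to 15.2 CPM in the other wild-type and P1-CTCF-KO libraries and 0.482 to 0.563 CPM in all 3 P2-CTCF-KO libraries. The HPC libraries B9.3 of wild type and D2.1 of P2-CTCF-KO had the highest mesoderm sums (13.1 and 20.2 CPM, against 2.76 to 10.6 CPM in the other 10) and sums of 5 cardiac and smooth muscle markers of 13.9 and 10.3 CPM. Kdr alone made up 11.2 and 18.1 CPM of these mesoderm sums, and D2.1 also had the highest endothelial sum in HPCs (53.6 CPM). The muscle sum was 11.5 CPM in P2-CTCF-KO D10.1 and at most 4.94 CPM in the other 9. Acta2 made up 11.7 and 7.12 CPM of the muscle sums of B9.3 and D2.1, and Tnnt2 made up 7.17 CPM of that of D10.1. Myh6 and Nkx2-5 had no count in any HPC library. The second HPC libraries of B9.3 and D2.1 were at 4.99 and 4.01 CPM for mesoderm markers.

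**Figure D1:**
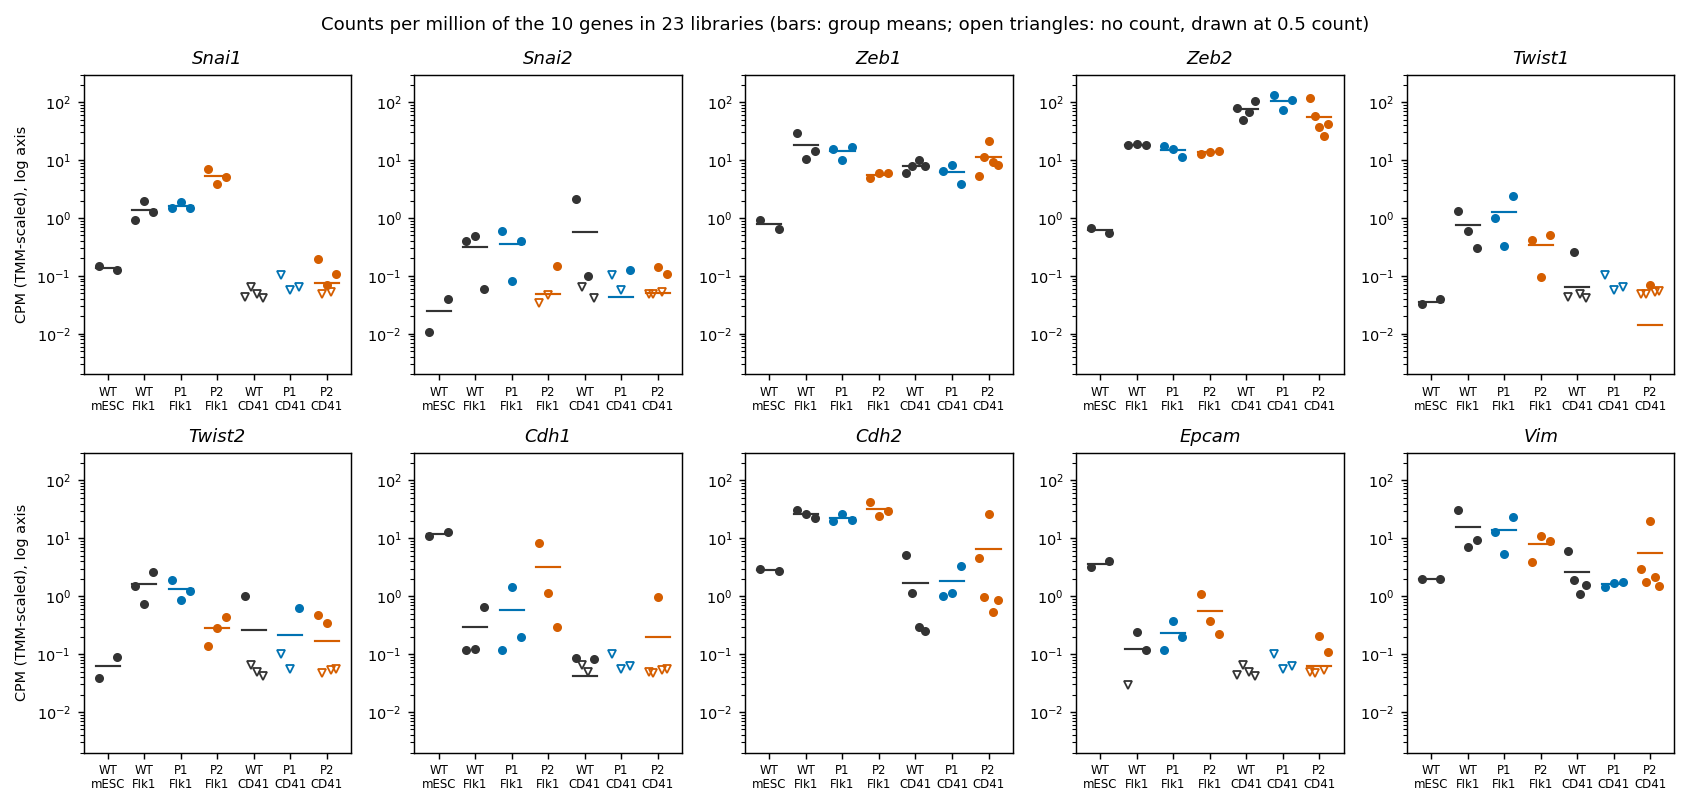
CPM (TMM-scaled counts, log axis) of each of the 10 genes in every library, with wild type in black, P1-CTCF-KO in blue, P2-CTCF-KO in orange, bars at group means and open triangles for libraries with no count, drawn at the value of 0.5 count. Cdh1 and Epcam lie highest in mESCs, Snai1, Cdh2 and Vim in mesoderm, and Zeb2 in HPCs, where its 12 libraries lie between 26.5 and 132 CPM.

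From undifferentiated mESCs to wild-type Flk1+ mesoderm, 5 transcription factors and Vim rose and the epithelial genes Cdh1 and Epcam fell. Of the 9 genes tested, 6 were called higher, where 10.4% of all 12543 genes were, and 2 were called lower, where 12.4% of all genes were. The 6 include Snai1, Twist1 and Twist2, which passed the filter mainly through mesoderm, and the 2 include Epcam, which passed through undifferentiated mESCs. The median absolute log2 fold change was 4.53 over the 9 genes (4.24 with Epcam at its bound) and 0.70 over all genes. In none of the 9 did the scaled levels of both stages overlap, a separation that rests on the TMM factors. The share of all genes without overlap was not computed, so this separation is not read as particular to these 9 genes. Of all calls in this step 45.6% were higher by edgeR and 56.4% by DESeq2.

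Zeb2, a zinc-finger homeobox repressor, had 0.671 and 0.559 CPM in undifferentiated mESCs and 18.1, 19.1 and 18.3 CPM in mesoderm, and it rose 29.8-fold (log2 fold change 4.89, SE 0.53, adjusted p = 3.1e-06). The mesoderm libraries lay close together. Its relative Zeb1 had 0.917 and 0.637 CPM and then 29.1 (B9.3), 10.6 (C6.1) and 14.4 CPM (C8.1), and rose 23-fold (4.53, SE 0.54, adjusted p = 9.2e-06). The library with the highest Zeb1 was the one with the highest endothelial sum. Snai1, which encodes the SNAIL repressor that is switched on in the primitive streak, had 0.147 and 0.127 CPM and then 0.93, 1.94 and 1.26 CPM, and rose 9.3-fold (3.22, SE 0.47, adjusted p = 0.00019). Its values rest on 27 and 13 counts in undifferentiated mESCs and 16 to 21 counts per mesoderm library, so the size of this rise depends on the scaling.

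The basic helix-loop-helix factors were scarcer. Twist1 had 6 and 4 counts in undifferentiated mESCs and 23, 5 and 5 counts in mesoderm (B9.3, C6.1, then C8.1), while its scaled level rose 18.8-fold (4.24, SE 0.90, adjusted p = 0.0021). Twist2 had 7 and 9 counts and then 26, 6 and 44 counts, and rose 25.8-fold (4.69, SE 1.09, adjusted p = 0.0035, and 0.075 without undifferentiated library 1, in a range of 0.00054 to 0.075 over the alternatives). Snai2, which encodes SLUG, had 2 and 4 counts in undifferentiated mESCs and 7, 4 and 1 in mesoderm and was not tested.

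Cdh1, the gene of the epithelial cadherin, had 11.1 and 12.8 CPM (2043 and 1305 counts) in undifferentiated mESCs and 0.116, 0.121 and 0.661 CPM (2, 1 and 11 counts) in mesoderm. It was 36.3-fold lower in mesoderm (-5.18, SE 1.16, adjusted p = 0.0031). Epcam, the gene of an epithelial cell adhesion molecule, fell from 585 and 419 counts to 0, 2 and 2, at least 15.2-fold (adjusted p = 0.00032). The calls of these 2 genes held when each library was left out in turn. Cdh1 lies inside the very long listed span of the entry Tsnax (chr8:580353-127558108), and how reads of overlapping entries were assigned is not given in the sources used here.

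Cdh2, the gene of the mesenchymal cadherin, had 2.99 and 2.75 CPM in undifferentiated mESCs and 31.1, 26 and 22.2 CPM in mesoderm. Every mesoderm library lay above both earlier ones, and the difference of 9.2-fold (3.20, SE 1.18) missed the threshold with an adjusted p of 0.051. It passed in 4 alternatives, among them the fit on the compared libraries alone (3.30, adjusted p = 0.00013), and over all alternatives its adjusted p ranged from 0.00013 to 0.24. Vim had 1.96 and 2.01 CPM and then 30.6, 7.04 and 9.44 CPM, and rose 7.96-fold (2.99, SE 0.99, adjusted p = 0.03). Leaving out mesoderm B9.3, the library with the highest Vim, gave 2.07 with an adjusted p of 0.15, and leaving out undifferentiated library 1 or 2 gave 0.16 or 0.17 (range over the alternatives 0.0074 to 0.17).

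In wild type from mesoderm to CD41+ HPCs, Zeb2 rose further, whereas Snai1, Zeb1, Twist1, Twist2, Cdh2 and Vim fell. Of the 9 genes, 1 was called higher, against 10.7% of all genes, and 6 were called lower, against 12.4% of all genes. The 6 include Snai1, Twist1 and Twist2, which passed the filter mainly through mesoderm and so could hardly be called higher here. The median absolute log2 fold change was 2.64 over the 9 genes, 2.01 with 4 of them at their bounds, and 0.71 over all genes.

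Zeb2 had 79.3, 49, 67.6 and 103 CPM in the HPC libraries B9.3, B9.3-2, C6.1 and C8.1, all above the 18.1 to 19.1 CPM of mesoderm. The rise was 4.04-fold (2.01, SE 0.38, adjusted p = 0.00053) and was called in all 17 alternatives that gave a value. Zeb1 moved the other way. Its HPC libraries had 6.01, 7.93, 10.06 and 7.92 CPM, below the lowest mesoderm library at 10.6 CPM, and it fell 2.27-fold (-1.18, SE 0.38, adjusted p = 0.023). That call rested on mesoderm B9.3: without it the log2 fold change was -0.65 with an adjusted p of 0.24. With the clone as a block, the adjusted p was 0.053 at the same log2 fold change (range over the alternatives 0.0092 to 0.24).

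Snai1 gave no read in any of the 4 wild-type HPC libraries and fell at least 4.64-fold (adjusted p = 2.4e-05). The bound is small because 3 counts in an HPC library already stand for 0.25 to 0.384 CPM. Twist1 had 2 counts in B9.3-2 and none in the other 3, a fall of at least 2.52-fold (adjusted p = 0.011, and 0.087 without mesoderm B9.3, the highest of 0.0044 to 0.087 over the alternatives). Twist2 had 12 counts in B9.3 and none in the other 3 libraries, and its ranges in both stages overlapped. It was called with a log2 fold change of -2.56 (SE 0.94, adjusted p = 0.045), but not with the clone as a block (-2.97, adjusted p = 0.084), nor when any of 5 libraries was left out (range over the alternatives 0.00084 to 0.19).

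Cdh2 fell from 22.2 to 31.1 CPM in mesoderm to 5.15 CPM in B9.3, 1.15 in B9.3-2, 0.296 in C6.1 and 0.25 in C8.1. It was 15.1-fold lower (-3.92, SE 0.98, adjusted p = 0.0051). The highest HPC library was again B9.3, with 60 counts against 3 to 9 in the others, and without the HPC libraries B9.3 and D2.1 the log2 fold change was -5.76. Vim had 6.1 CPM in B9.3 and 1.08 to 1.92 CPM in the other 3, and it fell 5.84-fold (-2.55, SE 0.79, adjusted p = 0.019). Without mesoderm B9.3 the value was -1.61 (adjusted p = 0.17), and without HPC library C6.1 or C8.1 the adjusted p was 0.059 or 0.06 (range over the alternatives 8.6e-05 to 0.17). The part of the mesoderm and muscle markers of HPC library B9.3, chiefly Kdr and Acta2, in these levels was not tested.

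The epithelial genes did not come back in HPCs. Cdh1 had 1 count each in B9.3 and C8.1 and none in the other 2 wild-type libraries, and Epcam had none in any. In 3 of these 4 libraries Snai2 had at most 1 count, while B9.3 had 25.

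**Figure D2:**
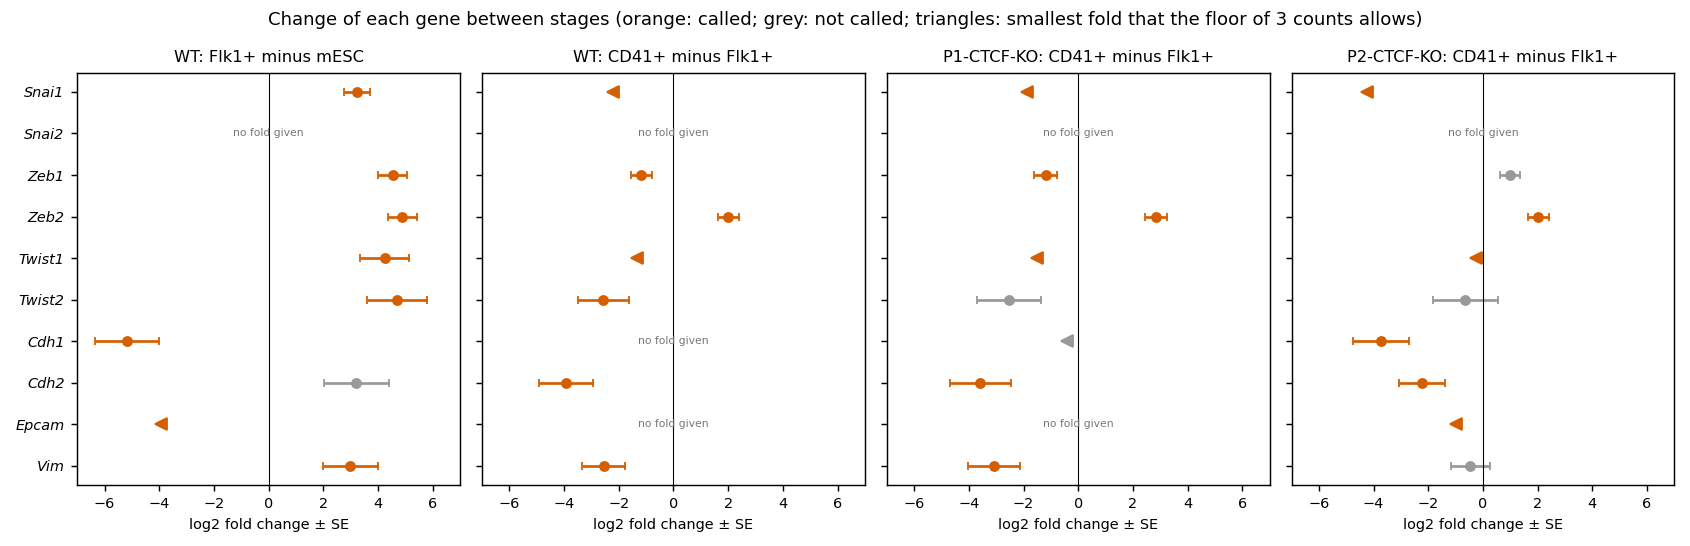
Log2 fold change with its SE of each gene in the 4 comparisons between stages, orange where called and grey where not, with triangles at the smallest fold that a floor of 3 counts allows. Zeb2 lies to the right of 0 in all 4 panels, and Zeb1 lies at -1.18 and -1.19 in wild type and P1-CTCF-KO and at 0.99 in P2-CTCF-KO.

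In P1-CTCF-KO, the same step gave 1 gene called higher, Zeb2, against 13% of all genes, and 5 called lower, Snai1, Zeb1, Twist1, Cdh2 and Vim, against 13.8% of all genes. The median absolute log2 fold change was 3.58, 1.88 with bounds, and 0.85 over all genes. Zeb2 had 17.3, 15.6 and 11.4 CPM in mesoderm clones E7.1, E7.2 and E9.1 and 132, 72.2 and 111 CPM in their HPCs. It rose 7.13-fold (2.83, SE 0.40, adjusted p = 2.8e-05), and every HPC library lay above every mesoderm library. Snai1 went from 25, 46 and 23 counts to none in all 3 HPC libraries, at least 3.67-fold lower (adjusted p = 6.3e-05). Twist1 went from 17, 8 and 37 counts to none, at least 2.83-fold lower (adjusted p = 0.0034).

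Cdh2 of P1-CTCF-KO fell from 19.8, 26.4 and 20.4 CPM to 1.01, 1.12 and 3.29 CPM, 12-fold (-3.58, SE 1.12, adjusted p = 0.018). Vim fell from 13, 5.27 and 23.7 CPM to 1.42, 1.68 and 1.77 CPM, 8.48-fold (-3.08, SE 0.95, adjusted p = 0.017). In both genes the stages did not overlap. Zeb1 fell from 15.8, 10.08 and 16.7 CPM to 6.49, 8.16 and 3.93 CPM, 2.29-fold (-1.19, SE 0.42, adjusted p = 0.034). With 3 libraries a stage, the calls of these 3 genes depended on single libraries. Leaving out 1 of 4 libraries in turn raised Zeb1 to an adjusted p of 0.076 to 0.15 and Vim to 0.051 to 0.07, and leaving out HPC library E7.1 or E7.2 raised Cdh2 to 0.069 or 0.074. With the clone as a block, Zeb1 had an adjusted p of 0.066. Over all alternatives the ranges were 0.0083 to 0.15 for Zeb1, 0.0012 to 0.07 for Vim and 6.7e-05 to 0.074 for Cdh2. Twist2 had 33, 21 and 19 counts in mesoderm and 0, 0 and 5 in HPCs and was not called (adjusted p = 0.11). Cdh1 and Epcam, with 2 to 35 counts in mesoderm, had none in P1-CTCF-KO HPCs, and neither was called (adjusted p = 0.14 and 0.079).

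In P2-CTCF-KO, Zeb2 was the gene called higher, against 13.2% of all genes, and Snai1, Twist1, Cdh1, Cdh2 and Epcam were called lower, against 11.8% of all genes. The median absolute log2 fold change was 2.23, 0.99 with bounds, and 0.74 over all genes. Zeb2 had 12.9, 13.8 and 14.4 CPM in mesoderm clones D10.1, D2.1 and E9.1. In HPCs it had 117 and 57.7 CPM in the 2 libraries of D10.1, 37 and 26.5 CPM in those of D2.1 and 42.5 CPM in E9.1. It rose 4.1-fold (2.03, SE 0.37, adjusted p = 0.00028). The stages did not overlap, although the paired libraries of D10.1 lay far apart.

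Snai1 had 103, 41 and 69 counts in P2-CTCF-KO mesoderm and 2, 0, 1, 0 and 1 counts in HPCs, at least 18.7-fold lower (adjusted p = 3.2e-07). Its call held in all 18 alternatives. Twist1 went from 6, 1 and 7 counts to 1 count in HPC library D2.1 and none in the other 4, at least 1.19-fold lower (adjusted p = 0.024, range over the alternatives 0.011 to 0.091). Zeb1 had 4.96, 6 and 5.92 CPM in mesoderm and 5.33, 11.4, 21.4, 9.08 and 8.37 CPM in HPC libraries D10.1, D10.1-2, D2.1, D2.1-2 and E9.1. The stages overlapped through D10.1 only, and the difference of 0.99 (SE 0.38) missed both thresholds (adjusted p = 0.051). It was called without HPC library D10.1 (1.17, adjusted p = 0.018), D2.1-2 (1.06, 0.049) or E9.1 (1.08, 0.045), and without the HPC libraries B9.3 and D2.1 it was 0.52 (adjusted p = 0.22).

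Among the structural genes of P2-CTCF-KO, 1 mesoderm library and 1 HPC library carried much of the signal. Cdh1 had 120, 12 and 4 counts in mesoderm D10.1, D2.1 and E9.1, and 14 in HPC library D2.1 with none in the other 4. The stages overlapped, and the fall was 13.2-fold (-3.72, SE 1.02, adjusted p = 0.0089). Without mesoderm D10.1 it was -1.47 (adjusted p = 0.38, range over the alternatives 0.001 to 0.38). Epcam had 16, 4 and 3 counts in mesoderm and 3, 1 and 0 in HPC libraries D2.1, E9.1 and the others, at least 1.98-fold lower (adjusted p = 0.017, and 0.18 without mesoderm D10.1, the highest of 0.0041 to 0.18). D10.1 also had the highest pluripotency sum in mesoderm, 8.82 CPM against 4.52 and 6.47 CPM in the other P2-CTCF-KO clones. Tdgf1 led its sum at 4.62 CPM, followed by Pou5f1 (1.52), Sox2 (1.03), Zfp42 (0.62), Nanog (0.551), Klf4 (0.276) and Esrrb (0.207). In undifferentiated mESCs Esrrb led the sum, at 16.4 and 15.4 CPM. The part of remaining undifferentiated cells in Cdh1 and Epcam of mesoderm D10.1 was not tested. Cells of this stage had been sorted for Flk1 by flow cytometry.

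Cdh2 of P2-CTCF-KO had 42.5, 24.1 and 29.8 CPM in mesoderm and 26.5 CPM in HPC library D2.1, where the other 4 HPC libraries had 0.528 to 4.55 CPM. It fell 4.68-fold (-2.23, SE 0.83, adjusted p = 0.045), and leaving out any of 7 libraries in turn ended the call, with HPC library D2.1 the exception. Without the HPC libraries B9.3 and D2.1 the value was -4.29 (adjusted p = 9e-07, the lowest of a range up to 0.14). Vim behaved alike: 3.93, 11.2 and 9.03 CPM in mesoderm, 20.1 CPM in HPC library D2.1 and 1.52 to 2.91 CPM in the other 4. It was not called (-0.46, SE 0.72, adjusted p = 0.67), and without HPC library D2.1 it was called lower (-1.94, adjusted p = 0.011, range over the alternatives 0.0031 to 0.93). D2.1 is the HPC library with the highest mesoderm sum, although HPCs had been sorted as Ter119-, CD41+ and CD45- cells. Kdr made up 18.1 of the 20.2 CPM of that sum, followed by Eomes (1.12 CPM), Mixl1 (0.419), Hand1 (0.349), Pdgfra (0.14) and T (0.0698), and Mesp1 had none. Its pluripotency sum was the highest in HPCs too, 2.16 CPM against at most 0.978 CPM in the others, with 3 of 7 markers above 3 counts. D2.1 also had the highest endothelial sum in HPCs, 53.6 CPM. The part of mesodermal or endothelial cells in these levels was not tested. An exact 2-sided permutation test of log2 CPM, with 3 against 5 libraries and a smallest possible p of 0.036, gave an unadjusted p of 0.036 each for Snai1, Zeb2, Twist1 and Epcam, 0.071 each for Cdh1 and Cdh2, 0.11 for Zeb1 and 0.25 for Vim. It treats the paired libraries of D10.1 and D2.1 as independent.

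The level of N-cadherin relative to E-cadherin was also read within each library, as log2 of the counts of Cdh2 over those of Cdh1 with 0.5 added to both, which no scaling between libraries can change. It was -1.90 and -2.22 in undifferentiated mESCs, where Cdh1 had the more counts although its counted span is the shorter. It was 7.74, 7.16 and 5.01 in wild-type mesoderm, 7.09, 4.18 and 6.48 in P1-CTCF-KO mesoderm and 2.36, 4.36 and 6.49 in P2-CTCF-KO mesoderm. All 9 mesoderm libraries lay above 0 and both undifferentiated ones below. The means were 6.64 ± 1.44, 5.92 ± 1.53 and 4.40 ± 2.07 (SD, n = 3 each), so the 3 genotypes did not differ beyond their spread. In HPCs the ratio was 3.40 ± 1.78 (n = 4), 4.53 ± 1.14 (n = 3) and 4.64 ± 1.17 (n = 5), but both genes were then low. Only P2-CTCF-KO D2.1 had more than 3 counts of Cdh1, so an HPC ratio mostly reflects the level of Cdh2.

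**Figure D3:**
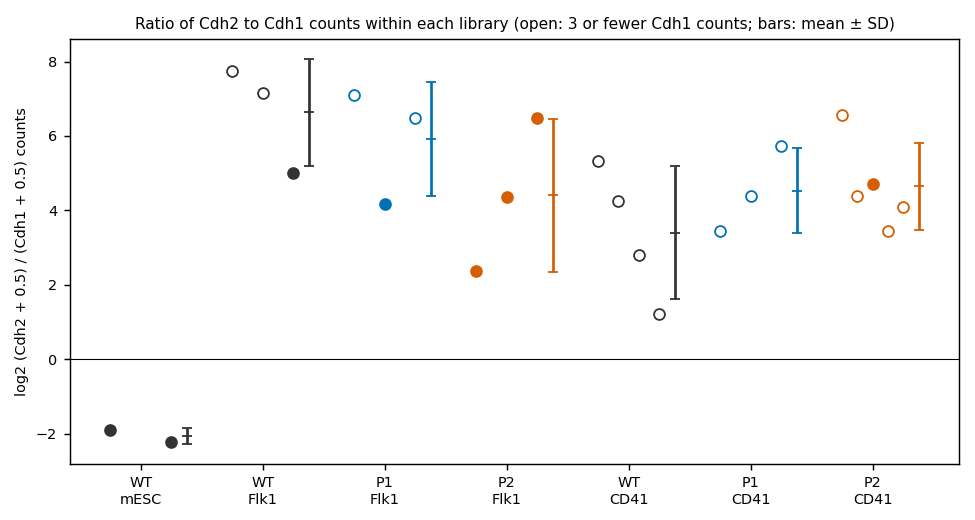
Log2 ratio of Cdh2 to Cdh1 counts (0.5 added to each) in every library, open where Cdh1 had 3 or fewer counts, with bars for the mean and SD of each group. Both mESC libraries lie near -2, at -1.90 and -2.22, and every mesoderm and HPC library lies above 0.

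Deletion of either CTCF site was then compared with wild type within a stage. In P1-CTCF-KO mesoderm no gene of all tested was called by edgeR (0%), with 184 at an unadjusted p under 0.05, and DESeq2 called none either. None of the 9 genes was called, with log2 fold changes between -0.35 for Zeb1 and 0.96 for Cdh1 and an adjusted p of 1 for each. Epcam, with 2, 9 and 3 counts against 0, 2 and 2, is given no fold. In 8 of the 9 the libraries of both genotypes overlapped. The exception was Zeb2, at 17.3, 15.6 and 11.4 CPM against 18.1 to 19.1 CPM in wild type (-0.33, SE 0.38). The share of all genes without overlap was not computed, so this separation is not read as a difference. The signs for Zeb1, Twist1, Twist2 and Vim turned when single libraries were left out.

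In P2-CTCF-KO mesoderm, 18 genes were called (0.144%), and none of them was among the 9 genes. Snai1 and Zeb1 came nearest. Snai1 had 7.09, 3.84 and 5.11 CPM in P2-CTCF-KO D10.1, D2.1 and E9.1 against 0.93, 1.94 and 1.26 CPM in wild type and 1.46, 1.89 and 1.51 CPM in P1-CTCF-KO. All 3 P2-CTCF-KO libraries lay above the 6 others, and the share of all genes that separate in this way was not computed. The difference from wild type was 4.02-fold (2.01, SE 0.39), with an unadjusted p of 8e-05 and an adjusted p of 0.053. DESeq2 called it (2.03, adjusted p = 0.00022), as did edgeR without a filter on low counts (0.013) and with libraries of a clone summed (0.026), and so did leaving out wild-type library C6.1 (2.29, adjusted p = 0.025). Over all alternatives the adjusted p ranged from 0.00022 to 0.34. C6.1 was the wild-type library with the highest Snai1 and the smallest TMM factor (0.3807), at which 1 count stands for 0.121 CPM against 0.0581 and 0.0601 CPM in B9.3 and C8.1.

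Zeb1 was lower in P2-CTCF-KO mesoderm, at 4.96, 6 and 5.92 CPM against 29.1, 10.6 and 14.4 CPM in wild type and 15.8, 10.08 and 16.7 CPM in P1-CTCF-KO, again with no overlap. The difference of 3.22-fold (-1.69, SE 0.42) had an adjusted p of 0.12. It was called by DESeq2 (0.016), without a filter on low counts (0.033) and without wild-type C6.1 (-1.95, 0.034), in a range of 0.016 to 0.77. Zeb2, its paralog, had 12.9 to 14.4 CPM against 18.1 to 19.1 CPM (-0.44, SE 0.38, adjusted p = 0.74), a small difference without overlap. Since the share of all genes without overlap was not computed, the separations of Snai1, Zeb1 and Zeb2 are not read as differences. Twist2 had 2, 3 and 6 counts against 26, 6 and 44 in wild type (-2.54, SE 1.0, adjusted p = 0.35). The endothelial sum was under 0.6 CPM in the P2-CTCF-KO libraries and 1.46 to 71.6 CPM in wild type, and the part of endothelial cells in the lower Zeb1 was not tested. Without wild-type B9.3, the library with the highest sum, the log2 fold change of Zeb1 was -1.16, the nearest to 0 of the leave-one-out values.

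Cdh1 had 8.27, 1.13 and 0.296 CPM in P2-CTCF-KO mesoderm against 0.116 to 0.661 CPM in wild type (3.32, SE 1.14, adjusted p = 0.27). E9.1 lay within the wild-type range. Epcam had 16, 4 and 3 counts against 0, 2 and 2, at least 2.36-fold higher (adjusted p = 0.32). Both genes were highest in D10.1, the clone with the highest pluripotency sum, of which Tdgf1 made up 4.62 of 8.82 CPM. Twist1 (-1.10, SE 0.79), Cdh2 (0.28, SE 0.93) and Vim (-0.98, SE 0.80) overlapped with wild type and had an adjusted p of 0.68 or more.

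**Figure D4:**
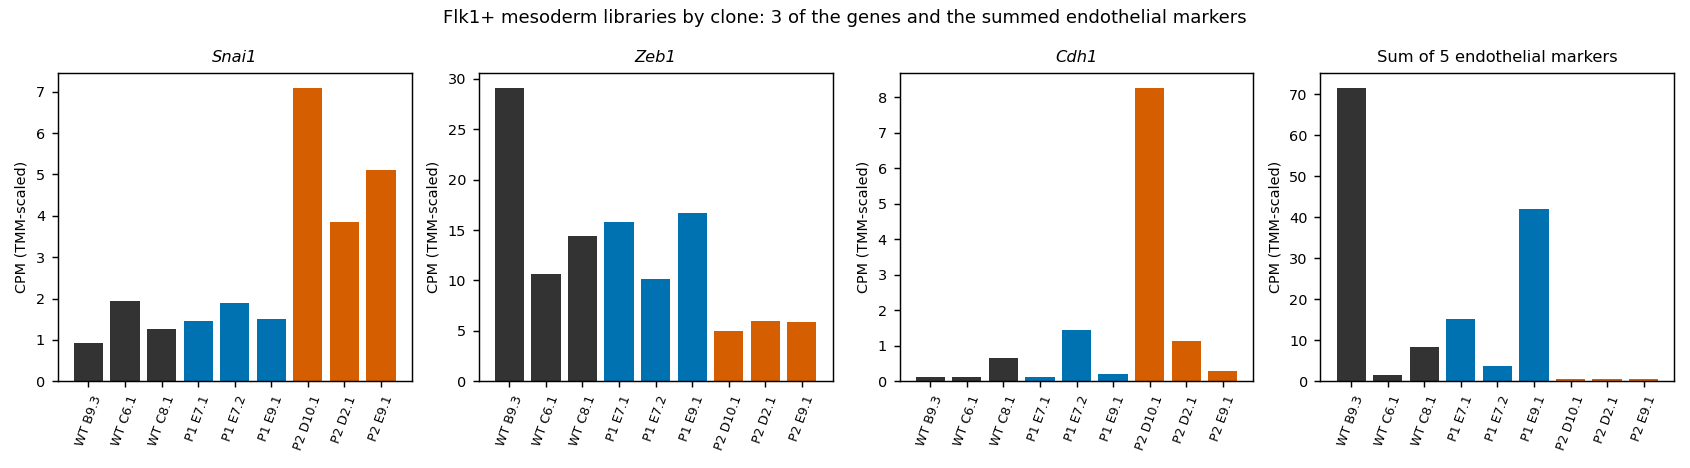
Snai1, Zeb1 and Cdh1 and the summed level of 5 endothelial markers (CPM, linear axis from 0) in each of the 9 mesoderm libraries, 1 bar per clone. Snai1 is at 3.84 CPM or more in P2-CTCF-KO and at 1.94 CPM or less elsewhere, Zeb1 is at 6 CPM or less in P2-CTCF-KO and at 10.08 CPM or more elsewhere, and Cdh1 stands out in D10.1 at 8.27 CPM.

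In HPCs, edgeR called no gene in P1-CTCF-KO (0%) or in P2-CTCF-KO (0%) against wild type, with 589 and 543 genes at an unadjusted p under 0.05, while DESeq2 called 2 and 0. The levels of Zeb2 were 74.7 ± 22.5 CPM (SD, n = 4) in wild type, 105 ± 30.4 CPM (n = 3) in P1-CTCF-KO (0.49, SE 0.35) and 56.1 ± 35.6 CPM (n = 5) in P2-CTCF-KO (-0.41, SE 0.31), and they overlapped. Zeb1 was at 7.98 ± 1.65, 6.19 ± 2.13 and 11.1 ± 6.15 CPM. The difference of Cdh2 in P2-CTCF-KO (1.97, SE 0.90, adjusted p = 0.99) rested on HPC library D2.1, without which it was -0.0020, and that of Vim (1.11, SE 0.72, adjusted p = 0.99) turned to -0.39 without it. Snai1, Twist1 and Epcam had at most 3 counts in every HPC library of every genotype. An exact 2-sided permutation test of P2-CTCF-KO against wild-type HPCs gave unadjusted p-values of 0.11 to 0.98 over the 10 genes.

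Whether the step from mesoderm to HPCs differed between genotypes was tested as an interaction. For P1-CTCF-KO no gene was called (0%), with 443 at an unadjusted p under 0.05 and 1 by DESeq2, and Zeb2 had the steeper rise by 0.82 (SE 0.52, adjusted p = 1). For P2-CTCF-KO 2 genes were called (0.0159%), neither of them one of the 9. Zeb1 fell by 1.18 on the log2 scale in wild type and stood 0.99 higher in P2-CTCF-KO HPCs, a difference between steps of 2.17 (SE 0.54, unadjusted p = 0.00055, adjusted p = 0.24). DESeq2 gave the same size with an adjusted p of 0.034, the lowest of a range up to 0.9. The steps of Vim (2.09, SE 1.08, adjusted p = 0.76) and Cdh2 (1.69, SE 1.28, adjusted p = 0.93) were not shown to differ, and without HPC library D2.1 the Cdh2 value was -0.28.

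Levels of different genes can be set beside each other only per length, here CPM per kb of the counted span, which includes introns. In undifferentiated mESCs Epcam (0.241 ± 0.0428), Vim (0.233 ± 0.00424) and Cdh1 (0.179 ± 0.0174) led (mean ± SD of 2 technical replicates of 1 culture, so these levels are set side by side without a comparison). In wild-type mesoderm the order began with Vim (1.84 ± 1.52), Twist1 (0.346 ± 0.246), Snai1 (0.298 ± 0.112), Zeb2 (0.138 ± 0.00366), Cdh2 (0.12 ± 0.0201) and Zeb1 (0.0981 ± 0.0534), n = 3. Each of these overlapped with its neighbour within 1 SD, except Snai1 and Zeb2. In wild-type HPCs Zeb2 came first (0.558 ± 0.168, n = 4), ahead of Vim (0.314 ± 0.271) within the spread and of Zeb1 (0.0435 ± 0.009) beyond it.

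Across the 7 groups, Zeb2 stood in the order P1-CTCF-KO HPCs, wild-type HPCs, P2-CTCF-KO HPCs, wild-type mesoderm, P1-CTCF-KO mesoderm, P2-CTCF-KO mesoderm and mESCs, and neighbours within HPCs did not differ beyond their spread. Cdh2 stood highest in P2-CTCF-KO mesoderm (32.1 ± 9.42 CPM), followed by wild-type (26.4 ± 4.44) and P1-CTCF-KO mesoderm (22.2 ± 3.66), which overlapped, and lay at 6.68 ± 11.2, 1.81 ± 1.29 and 1.71 ± 2.33 CPM in HPCs of P2-CTCF-KO, P1-CTCF-KO and wild type. Snai1 stood highest in P2-CTCF-KO mesoderm (5.35 ± 1.64 CPM), ahead of P1-CTCF-KO (1.62 ± 0.237) and wild type (1.38 ± 0.516).

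Genes whose group means were most like those of each gene were ranked by Pearson's r over 7 group means of log2 CPM among 11831 genes, as a description of 7 points that share libraries. For Snai1 they were Simc1 (r = 0.998), Eomes (0.997), which encodes a T-box factor of the primitive streak, and Hnrnpl (0.994). For Zeb2 they were Hacd1 (0.998), Ptpra (0.997) and Zfpm1 (0.997), which encodes FOG1, a cofactor of GATA1. For Cdh2 they were the T-box factor Tbx3 (0.998), Pth1r (0.996) and Gpc6 (0.996), and for Cdh1 Qtrt2 (0.994), Pbx4 (0.993) and Tardbp (0.993). Epcam was followed by Zcchc2 (0.996) and Epha2 (0.995), Vim by Sh3pxd2b (0.993), Fbn2 (0.993) and Ryk (0.989), and Zeb1 by Gad2 (0.992), Prrc1 (0.988) and Pds5b (0.988). Twist1 was followed by Padi3 (0.997), Ntf3 (0.993) and Tmem132c (0.990), and Twist2 by Adamts2 (0.999), Kcnq5 (0.991) and Nfxl1 (0.989). No p is given for them.

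Other genes of the epithelial and mesenchymal programs were counted in 4 lists, and the last value in parentheses is the adjusted p. Of 32 epithelial junction and cytoskeleton genes tested, 14 fell, against 12.4% of all genes, and 0 rose from undifferentiated mESCs to wild-type mesoderm, with a median log2 fold change of -1.66 (-1.04 with 11 genes at bounds) against -0.16 over all genes. Of the 14, 8 had at most 10 counts in every library outside undifferentiated mESCs, so they passed the filter through those libraries and could only fall, as could 5 of the 8 regulators and both cadherins that fell below. Examples are the tight junction gene Cgn (at least 19.2-fold, adjusted p = 1e-05), the membrane protease gene St14 (at least 15-fold, 0.00067) and its inhibitor Spint2 (-3.47, SE 0.63, 0.00047). Of 24 mesenchymal matrix and adhesion genes, 10 rose, against 10.4% of all genes, and 0 fell, with a median of 2.41. They included Tgfb1 (4.24, SE 0.60, 5.5e-05), the cadherin Cdh11 (8.34, SE 1.41, 0.00027) and the hyaluronan receptor Cd44 (4.10, SE 0.71, 0.00032). List genes that passed the filter through mesoderm alone could only rise here and fall towards HPCs, and they were not counted. Examples are Sox9 and Prrx1 below, with 3 or fewer counts in each undifferentiated and wild-type HPC library.

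Of 22 other regulators of EMT, 5 rose and 8 fell, against 10.4% and 12.4% of all genes. Risers were Tcf12 (2.33, SE 0.32, 3.7e-05), Sox9 (at least 31.9-fold, 0.00018) and Prrx1 (at least 53.7-fold, 0.0023). The epithelial splicing factors Esrp1 (-6.03, SE 1.04, 0.00063) and Esrp2 (at least 3.77-fold lower, 0.0015) and the epithelial factor Grhl2 (-5.34, SE 0.98, 0.001) fell. Of 12 other cadherins, 3 rose and 2 fell. Besides Cdh11, which is in both lists, these were Cdh6 (3.12, SE 0.97, 0.023) and Cdh5, the endothelial VE-cadherin and an endothelial marker of the list above, which had 27.5 CPM in mesoderm B9.3, the library with the highest endothelial sum, 0.364 CPM in C6.1 and 2.58 CPM in C8.1. It rose at least 441-fold (0.0017), and without B9.3 at least 64.4-fold (0.0085). Cdh9 fell at least 4.04-fold (0.00055), and Cdh18 went from 0.231 CPM to none (0.025). Of the called genes, 9 of 14 epithelial genes, 5 of 10 mesenchymal genes, 5 of 13 regulators and 3 of 5 cadherins stayed called whichever single library was left out. Of those named, Sox9 no longer passed the filter without mesoderm B9.3, Prrx1 lost its call without undifferentiated library 1 (adjusted p = 0.054), Cdh6 without B9.3 or either undifferentiated library (0.075 to 0.14) and Cdh18 without any of 4 libraries (0.064 to 0.14).

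In the wild-type step to HPCs, where 12.4% of all genes were called lower and 10.7% higher, epithelial genes called lower were 8 of 32, with 1 higher, and the median was -0.84 (0.00 with 15 genes at bounds). Tjp1 (-1.93, SE 0.35, adjusted p = 0.00042), Lsr (-2.89, SE 0.60, 0.0012) and the desmosome gene Dsp (-3.37, SE 0.73, 0.0017) fell, while F11r, which encodes a junctional adhesion molecule also found on platelets, rose (1.84, SE 0.68, 0.047). Mesenchymal genes called lower were 8 of 24, among them Mmp2 (-3.36, SE 0.52, 9.7e-05), Vcan (-4.52, SE 0.83, 0.00046) and Tgfb2 (-4.01, SE 0.87, 0.0018), and Tgfb1 rose (2.75, SE 0.45, 0.00014). Of 22 other regulators 6 fell, among them Yap1 (-3.58, SE 0.60, 0.00018), Sox4 (-3.07, SE 0.65, 0.0013) and Rbpms (-3.24, SE 0.75, 0.0027). Of 12 other cadherins 4 fell, among them Cdh11 (-3.86, SE 0.88, 0.0025), Cdh4 (-3.38, SE 0.98, 0.013) and Cdh13 (-3.54, SE 1.05, 0.015). Of the called genes, 5 of 9 epithelial genes, 8 of 9 mesenchymal genes, 3 of 6 regulators and 2 of 4 cadherins stayed called whichever single library was left out. The call of F11r ended without any of 4 libraries (adjusted p = 0.086 to 0.19) and that of Cdh13 without clone C8.1 in either stage (0.073 and 0.051). Without the HPC libraries B9.3 and D2.1, those called lower were 12 epithelial genes, 13 mesenchymal genes, 7 regulators and 7 cadherins, and F11r lost its call.

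In P1-CTCF-KO, where 13.8% of all genes were called lower and 13% higher, 9 of 32 epithelial genes fell and 2 rose in that step. Pard6b (at least 6.82-fold, adjusted p = 0.00077), Tjp1 (-1.92, 0.00098) and Dsp (-4.13, 0.0013) fell, and F11r (2.83, 0.0052) and Itga6 (2.81, 0.012) rose. Of 24 mesenchymal genes 9 fell, with Mmp2 (at least 7.77-fold, 2e-04), Vcan (-5.07, 0.00064) and Fn1 (-4.33, 0.00078) first, and 2 rose, among them Tgfb1 (3.01, 5.1e-05). Of 22 other regulators 5 fell, with Yap1 (-2.98, 0.0018), Tcf3 (-1.13, 0.0022) and Rbpms (-3.48, 0.0042) first, and Grhl1 rose at least 3.04-fold (0.037). Of 12 other cadherins 4 fell, among them Cdh11 (-4.40, 0.004), Cdh13 (at least 7.68-fold, 0.02) and Cdh24, which went from at most 12 counts to at most 1 (0.026). Of the called genes, 6 of 11 epithelial genes, 6 of 11 mesenchymal genes, 3 of 6 regulators and 1 of 4 cadherins stayed called whichever single library was left out. Single libraries ended the calls of Itga6 (E7.1 in either stage, adjusted p = 0.054 each), Tcf3 (HPC library E7.1, at -0.93), Grhl1 (3 libraries, 0.09 to 0.79), Cdh13 (3 libraries, 0.067 to 0.084) and Cdh24 (3 libraries, 0.079 to 0.14).

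In P2-CTCF-KO, 11.8% of all genes were called lower in that step and 13.2% higher. Of 32 epithelial genes 9 fell, with Lsr (-3.22, adjusted p = 5.1e-05), Dsg2 (-3.44, 0.00018) and Dsp (-3.54, 0.00035) first, and F11r (2.07, 0.024) and Llgl2 (1.33, 0.037) rose. Mesenchymal genes that fell were 6 of 24, with Fn1 (-3.67, 0.00036), Cdh11 (-4.38, 0.00041) and Mmp2 (-2.39, 0.0014) first, and 3 rose, among them Tgfb1 (1.53, 0.0067) and the smooth muscle marker Acta2 (at least 11.3-fold, 0.019). Acta2 had at most 2 counts in mesoderm and, in HPCs, 7.12 CPM in D2.1, 3.97 CPM in D10.1 and 0.422 to 1.41 CPM in the other 3. Without HPC library D2.1 it was at least 6.64-fold higher (0.045), and without mesoderm D10.1 or E9.1 it was not called (0.08 and 0.068). Of 22 other regulators 6 fell, with Yap1 (-2.36, 0.0014), Sox9 (at least 2.6-fold, 0.0015) and Sox4 (-2.21, 0.0044) first, and Grhl1 rose at least 3.48-fold (0.0041). Of 12 other cadherins 4 fell, with Cdh11, Cdh8 (at least 6.29-fold, 0.0014) and Cdh4 (-3.61, 0.0025) first, and Cdh5 was called higher (4.99, 0.02). Cdh5 had 0.0689 to 0.296 CPM in mesoderm, 17.4 CPM in HPC library D2.1, which had the highest endothelial sum, and 0.678 to 3.69 CPM in the other 4. Without HPC library D2.1 its value was 3.50 (adjusted p = 0.078), and leaving out any of the 3 mesoderm libraries also ended the call (0.053 to 0.079). Single libraries also ended the calls of F11r (3 libraries, adjusted p = 0.077 to 0.099), Llgl2 (5 libraries, 0.052 to 0.13) and Tgfb1 (HPC library D10.1, at 0.88), and Cdh8 no longer passed the filter without mesoderm D2.1. Of the called genes, 5 of 11 epithelial genes, 7 of 9 mesenchymal genes, 4 of 7 regulators and 3 of 5 cadherins stayed called whichever single library was left out. Without the HPC libraries B9.3 and D2.1, those called lower were 12 epithelial genes, 11 mesenchymal genes, 8 regulators and 7 cadherins. No gene of the 4 lists was called in any comparison between genotypes.

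The start sites of these genes were set against peaks of open chromatin (ATAC-seq) of wild-type mesoderm (76766 peaks, reads of several libraries merged) and wild-type HPCs (29037 peaks), and of CTCF ChIP-seq in 416B cells (44513 peaks), a mouse myeloid progenitor line. The lists hold positions alone, with no height, and 1 merged list per stage, so no difference could be tested. The methods name the ATAC-seq cells E14-TG2a-RV, which carry a Venus reporter in Runx1 and an enhancer reporter transgene in Col1a1, where the labels give E14-TG2a. Within 1 kb of the start, 8 of the 10 genes had a mesoderm peak, against 84.6% of 12423 genes, and 4 of 10 had an HPC peak, against 61.9%. The 4 were Snai1, Snai2, Cdh2 and Vim. Zeb1 and Cdh1 had no peak at the listed start in either stage, and Zeb2, Twist1, Twist2 and Epcam had one in mesoderm only. A CTCF peak lay within 1 kb at Snai1 alone, against 18.2% of genes.

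Snai1 had a start-site peak in HPCs, where its libraries had 0 to 2 counts, and Zeb2, the gene highest in HPCs, had no HPC peak within 1 kb of its start. Twist1 and Twist2 had a start-site peak in mesoderm and none in the shorter HPC list, and both were called lower in wild-type HPCs. Within 1 kb of its span, Zeb2 (mm9 chr2:44839031-44972962, minus strand) held 13 mesoderm and 5 HPC peaks, of which 10 and 2 had no overlap with a peak of the other stage. Cdh2 held 11 mesoderm and 4 HPC peaks, and all 4 HPC peaks overlapped mesoderm peaks. Cdh1 held a single open site in mesoderm, 16.52 kb into the gene, with 3 CTCF peaks farther on, and Zeb1 held 1 open site, 88.51 kb into the gene, and 2 CTCF peaks.

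Sequences of the 2 Zeb2 sites called open in HPCs only are shown because Zeb2 was called higher in HPCs than in mesoderm in all 3 genotypes. They lie inside the span of Zeb2, are given on the plus strand of mm9, opposite to the gene, and hold no E-box of the letters above.
Zeb2 HPC site, mm9 chr2:44875591-44875660: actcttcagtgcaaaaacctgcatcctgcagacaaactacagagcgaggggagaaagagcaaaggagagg
Zeb2 HPC site, mm9 chr2:44905034-44905109: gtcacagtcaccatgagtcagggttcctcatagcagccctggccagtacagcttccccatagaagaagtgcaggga

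**Figure D5:**
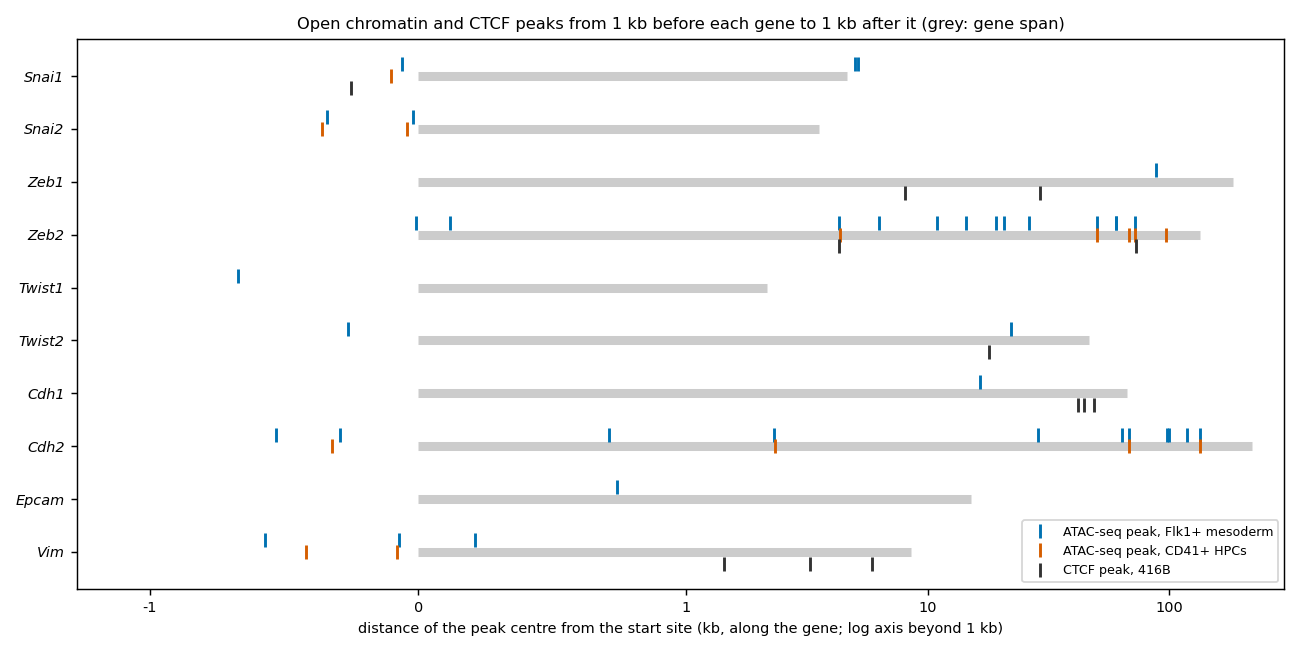
Positions of mesoderm ATAC-seq peaks (blue), HPC ATAC-seq peaks (orange) and 416B CTCF peaks (black) from 1 kb before each of the 10 genes to 1 kb after it, as distance of the peak centre from the start along the gene (linear to 1 kb, log axis beyond), with gene spans in grey. Zeb2 and Cdh2 hold the most open sites, 13 and 11 in mesoderm and 5 and 4 in HPCs, and Zeb1 and Cdh1 have none at the start.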

How the data were processed

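Poly(A)-minus RNA-seq counts of 23 E14-TG2a libraries in 7 groups of stage and genotype were used as deposited. The authors aligned to mm9 by STAR, dropped duplicates using picard and obtained raw counts per gene by featureCounts, not normalized. Its annotation and strand setting are not given in the sources used here. Totals were 20532578 to 24283287 counts in undifferentiated libraries, 18233679 to 24406998 in mesoderm and 7805102 to 13513677 in HPCs. ATAC-seq and CTCF peaks are start and end positions in other units than expression, called by the authors with MACS2 on merged libraries and deposited without score.

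The 10 genes, the gene lists and the tests were chosen with earlier results of these data known. Counts were filtered with filterByExpr (minimum count 10) and tested with edgeR 4.0.16 in R 4.3.3 (TMM, quasi-likelihood test, 1 fit of all 23 libraries, Benjamini-Hochberg over 12543 genes), and SE is the absolute log2 fold change divided by the square root of F. Libraries of a group are separate clones, except the 2 undifferentiated libraries and the second libraries of clones B9.3, D2.1 and D10.1, so p-values measure in part technical spread. The paper states that its P1-CTCF-KO sub-clones stem from 2 targeting events, so some P1-CTCF-KO clones share an event. Bounds use a floor of 3 counts per library and cover counting error only. Exact permutation tests used log2 CPM with 0.5 counts added. Named list genes were, per list and comparison, up to 3 higher and 3 lower called genes with the smallest adjusted p, and like genes the 3 with the highest r among genes with at least 100 counts, and a few genes that these rules name are not reported here. The clone links mesoderm and HPC libraries, and the deviations of such pairs from their group means correlated with r from -0.09 to 0.09 over 11832 genes. Alternatives were a fit on the compared libraries, DESeq2 1.42.0, RLE size factors, no filter, no ribosomal or multi-locus entries or entries over 2.5 Mb, no limit on the fold, libraries of a clone summed, no undifferentiated libraries, the clone as a replicate block and each library left out. Leaving out HPC libraries B9.3 and D2.1 together was chosen after seeing the data. Promoters are RefSeq entries of GRCm38.p6, and peak sequences were read from mm9.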

Additional observations from a re-analysis of the deposited data

Results flagged for a closer look

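In HPC groups of 4 or 5 libraries, 14 sets of values were examined for a library far from the others by Dixon's criterion, and 6 met it. The sets share libraries and some hold mostly libraries without a count, so this number cannot be set against a rate expected by chance. All 6 lay in 2 libraries. In wild-type B9.3, Snai2 stood at 2.15 CPM, Twist2 at 1.03 CPM and Vim at 6.1 CPM, and in P2-CTCF-KO D2.1, Cdh1 stood at 0.977 CPM, Cdh2 at 26.5 CPM and Vim at 20.1 CPM, each the highest of its group.

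Both libraries also had the highest summed mesoderm markers of the 12 HPC libraries, 13.1 CPM with 3 of 7 markers detected in B9.3 and 20.2 CPM with 6 of 7 in D2.1, against 2.76 to 10.6 CPM in the others. Kdr alone made up 11.2 and 18.1 CPM of these sums. The endothelial sums of B9.3 and D2.1 were 20.4 and 53.6 CPM, against 8.13 to 24.1 CPM in the others. In second libraries of the same clones, Vim stood at 1.92 CPM (B9.3-2) and 2.11 CPM (D2.1-2) and Cdh2 at 1.15 and 0.528 CPM. The part of other cell types in these values was not tested.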

How the results depend on the processing

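Of the log2 fold changes recomputed under alternatives other than leaving out 1 library, 480 kept their direction and side of the threshold, 13 passed it anew, 7 lost it and 2 turned. The 2 that turned did so without HPC libraries B9.3 and D2.1, a setting chosen after seeing the data: Vim in P1-CTCF-KO against wild-type HPCs (0.11) and Zeb1 in P2-CTCF-KO against wild-type HPCs (-0.02). A fit on the compared libraries called 1955 genes in the P2-CTCF-KO step, 0 in P2-CTCF-KO mesoderm against wild type and 1 in the P2-CTCF-KO interaction. It called 4 of the 10 genes in the wild-type step and 2 in the P2-CTCF-KO step, where it tested 5 each. DESeq2 called 115 genes in P2-CTCF-KO mesoderm, 2 in P1-CTCF-KO HPCs, 1 in the P1-CTCF-KO interaction and 43 in that of P2-CTCF-KO. No filter on low counts gave 93 genes in P2-CTCF-KO mesoderm and 38 in the P2-CTCF-KO interaction, and leaving the undifferentiated libraries out gave 9 in that mesoderm. Among the 10 genes, 2 were then called in P2-CTCF-KO mesoderm by DESeq2 and without a filter, 1 with libraries of a clone summed, and 1 in the P2-CTCF-KO interaction by DESeq2. The cause of these moves was not tested, beyond the number of genes and samples that enter each fit. A window of 2 kb gave 2 genes with a CTCF peak.

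With the clone as a replicate block, 5 genes were called in each step, and of all genes 2351 in wild type, 2786 in P1-CTCF-KO and 2455 in P2-CTCF-KO. Zeb1 and Twist2 in wild type (adjusted p = 0.053 and 0.084) and Zeb1 in P1-CTCF-KO (0.066) lost their calls by edgeR, Epcam in P2-CTCF-KO gave no value in that fit, and the block changed no other call.

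Leaving out 1 library at a time gave 1263 to 2573 genes from mESCs to mesoderm (1263 and 1451 without undifferentiated library 2 and 1), 2 to 95 in P2-CTCF-KO mesoderm (95 without wild-type C6.1) and 1 to 4 in the P2-CTCF-KO interaction. Of the 10 genes, 3 to 7 were called in the wild-type step (3 without mesoderm B9.3), 3 to 6 in the P1-CTCF-KO step (3 without HPC library E7.1), 2 to 7 in the P2-CTCF-KO step (2 without mesoderm D10.1) and 0 to 2 in P2-CTCF-KO mesoderm (2 without wild-type C6.1). In P1-CTCF-KO mesoderm, Zeb1 ranged from -0.62 to 0.18, Twist1 from -0.25 to 1.51, Twist2 from -0.68 to 0.19 and Vim from -0.80 to 0.75. In P1-CTCF-KO HPCs, Cdh2 ranged from -0.70 to 1.84 and Vim from -0.98 to 0.12. In P2-CTCF-KO HPCs, Cdh2 ranged from -0.0020 to 3.74 and Vim from -0.39 to 1.96, and the Cdh2 interaction from -0.28 to 3.45. HPC libraries are the shallowest, and 3 counts there stand for at most 0.608 CPM.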
